A study of Mus musculus with 43 samples.

Results

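The 10 genes studied here belong to pyrimidine metabolism and the 5-fluorouracil (5-FU) pathway, and they were followed in mouse colon organoids and fibroblasts. The members were fixed by name (Tyms, Tk1, Dctd, Dut, Dpyd, Umps, Upp1, Uck2, Rrm1 and Rrm2), and all 10 were found among the 52636 genes of both expression tables. Colonoids came from tamoxifen-treated Vil-cre/ERT2 mice with Apc wt/wt, and tumoroids from equally treated Vil-cre/ERT2 mice with Apc flox/flox, in which the villin promoter restricts the recombinase to the epithelium. Each of the 3 colonoid lines (M41, M40 and M1) and 3 tumoroid lines (F11, M3 and M14) was grown from an individual mouse of 2 months and was cultured for 6 days with DMSO alone, with regorafenib at 4 or 8 µM, or with 5-FU at 1 µM, giving 24 libraries in 8 groups of 3. Wild-type C57BL/6 colon fibroblasts (lines M3, M3(2), M1(2) and M11, separate from the organoid lines of similar name) were kept for 7 days in DMSO, regorafenib at 4 µM, the autophagy inhibitor autogramin-2 at 1 µM, or both agents, with 4 libraries per group, and 3 of the 4 lines also received 10 µM regorafenib. No M11 library at that dose was analysed. By the study's table of lines F11 came from a female mouse and the other 5 organoid lines from males, so within the tumoroids the sex of the donor and the line cannot be told apart.

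Pyrimidine nucleotides are made from small precursors by the de novo route, which ends in UMP, or recovered from nucleosides by salvage kinases. Ribonucleotide reductase converts ribonucleotides to deoxyribonucleotides, and thymidylate synthase then methylates dUMP to the thymidylate that DNA synthesis needs. The drug 5-FU enters the same network: it is activated to nucleotides by the enzymes of UMP synthesis and salvage, it blocks thymidylate synthase as FdUMP, and it is cleared by dihydropyrimidine dehydrogenase.

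The values are CP20M, the read counts of a gene after scaling to the same total in every library. Organoid libraries held 512592 to 22438322 recovered reads, and those of fibroblasts 7949937 to 12825870. The lowest total belonged to the M41 colonoids at 4 µM regorafenib, where the members rested on 1 read (Dpyd and Upp1) to 65 reads (Uck2) and Tyms on 4. Epithelial markers summed to 113994 to 358920 CP20M in the organoids against 221 to 1644 in the fibroblasts, and fibroblast markers to 12 to 123 against 110998 to 186156. In the fibroblast libraries muscle markers summed to 5136 to 43507 CP20M (median 23293). Endothelial markers reached 21953 CP20M (median 1870), glial markers 12641 (median 1425) and macrophage markers 5394 (median 965). The part of these markers in the results below was not tested. The organoid and fibroblast tables were scaled separately, so levels in them are set side by side without a test.

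Differences were tested with limma on log2(CP20M + 20) over all genes with at least 200 CP20M in at least 2 libraries of a table, and a gene was called at a Benjamini-Hochberg adjusted p under 0.05 and a change of at least 1.5-fold. Dpyd and Upp1 never reached 200 CP20M in any library and so were not tested under that filter, which left 8 members. Because libraries of 1 line shared deviations across genes, the fit with the line as a block is given wherever it changed a member's call or a count by over 1.5 times. In bulk RNA a lower level in fewer cells of a type and less RNA per cell cannot be told apart.

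Per kilobase of its principal transcript, Uck2 was the highest of the 10 genes in vehicle-treated colonoids at 911 ± 215 CP20M per kb (SD, n = 3) and in tumoroids at 1981.6 ± 499 (SD, n = 3). Next in colonoids came a group whose neighbours overlapped, from Tk1 at 308 ± 255 down to Tyms at 180 ± 42.8 CP20M per kb. Dctd at 106 ± 17, Upp1 at 69.7 ± 16.1 and Dpyd at 0.965 ± 0.129 CP20M per kb followed, each with a range below that of the gene before it. In tumoroids every member from Tk1 at 508 ± 650 to Umps at 226 ± 74.3 CP20M per kb overlapped its neighbour. The order within these groups depends on the length used, since Tk1 ranked 7 in colonoids when divided by all of its annotated exons. In vehicle-treated fibroblasts Rrm2 stood at 857 ± 440 CP20M per kb (SD, n = 4), Uck2 at 446 ± 96.7 and Rrm1 at 349 ± 71, again with overlapping ranges, and Dpyd was the lowest at 17.1 ± 5.28.

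**Figure D1:**
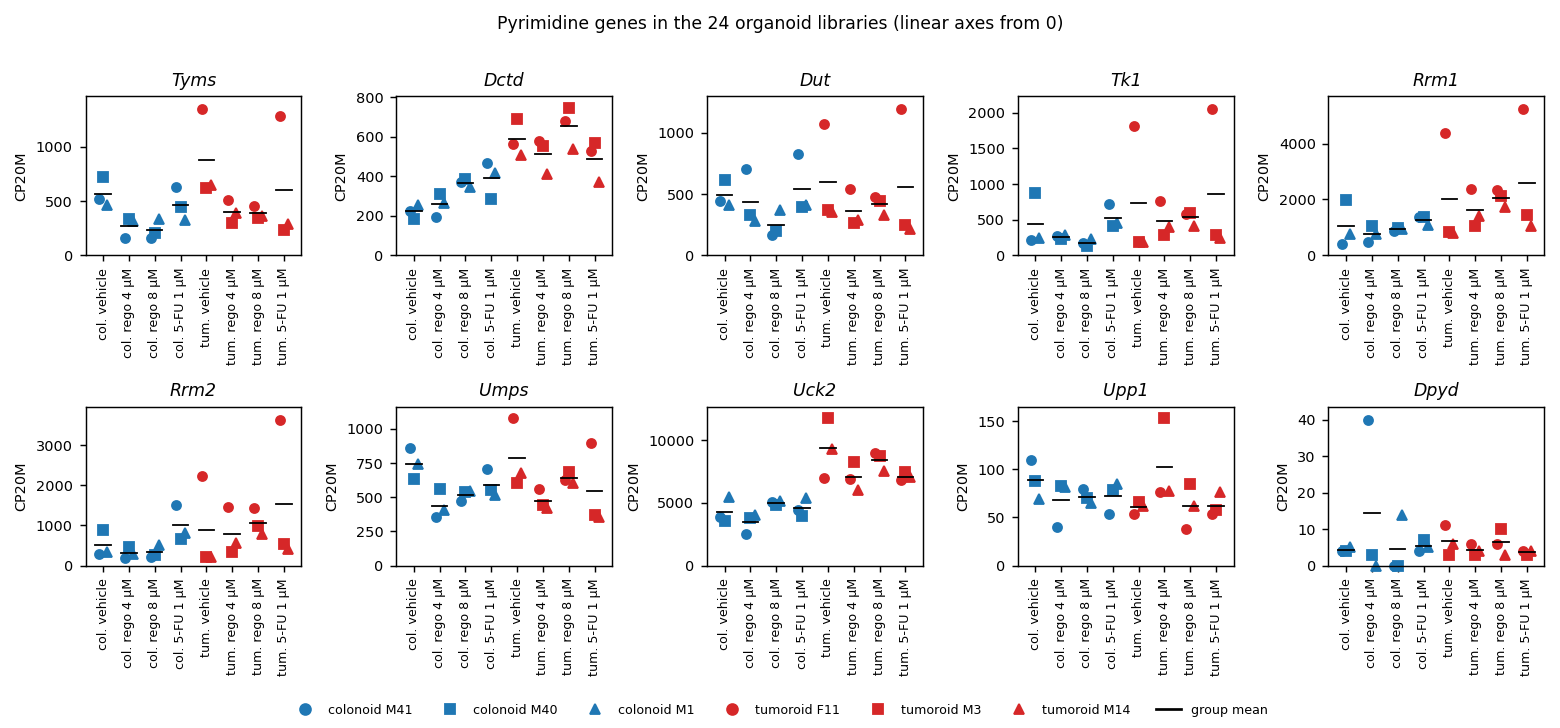
Level of each gene (CP20M, linear axis from 0) in every organoid library, by genotype and treatment; blue symbols are colonoid lines, red symbols tumoroid lines and black bars group means of 3. Uck2 is at 2537 to 5472 CP20M in the 12 colonoid libraries and 6022 to 11750 in the 12 tumoroid libraries, and the F11 circles are far above M3 and M14 for Tk1, Rrm1 and Rrm2 in vehicle and 5-FU.

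Apc loss was compared in vehicle, and 2 of the 8 members tested were called, both higher in tumoroids (Dctd and Uck2), where 2.06% of all genes were called. The median log2 fold change of the 8 was 0.36, against 0.06 over all genes. That share rests on 238 genes and depends on single lines and libraries. It was 29 genes without colonoid line M40, 360 without M1, 15 without tumoroid line M3, 84 without M14, and 785 without the colonoid library of fewest reads, while the fit of the vehicle groups alone called 1 gene.

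Dctd encodes dCMP deaminase, which supplies dUMP to thymidylate synthase. It was at 225, 186 and 257 CP20M in vehicle-treated colonoids M41, M40 and M1 and at 566, 692 and 510 in tumoroids F11, M3 and M14. The lowest tumoroid value was above the highest colonoid value. Its log2 fold change was 1.33 ± 0.22 (SE, 3 lines each), a ratio of 2.51, with a limma adjusted p of 0.00648. This SE and p, like those of every gene for Apc loss, use the spread of all 24 organoid libraries. Each line recurs among these under every treatment, and the main fit takes them as independent. Over 15 alternatives the log2 value ran from 1.09 to 1.43 and the adjusted p from 0.00241 to 0.0846. Under 2 of them the call was lost, with an adjusted p of 0.0846 without tumoroid line M3 and of 0.0723 when only the vehicle groups entered the fit.

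Uck2, a uridine-cytidine kinase that returns nucleosides (and fluorouridine) to the nucleotide pool, was at 3876, 3582 and 5472 CP20M in vehicle-treated colonoids and at 7030, 11750 and 9345 in tumoroids. Again the genotypes were separate, and they stayed so over all treatments, with 2537 to 5472 CP20M in the 12 colonoid libraries and 6022 to 11750 in the 12 tumoroid libraries. In vehicle its log2 fold change was 1.11 ± 0.21 (SE), a ratio of 2.16, with a limma adjusted p of 0.00841. Over 15 alternatives it ran from 0.93 to 1.30, with adjusted p-values of 0.00289 to 0.134. The call was lost without colonoid line M40 (adjusted p = 0.101), without tumoroid line M3 (0.134), without tumoroid line M14 (0.0549) and in the fit of the vehicle groups alone (0.125).

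The starts of these 2 genes are shown because they carry the genotype difference. The sequences are from RefSeq, build GRCm38.p6, and run 5′ to 3′ from 250 bases before to 50 bases after the annotated start. Capitals mark matches, on either strand, to the CCAAT box (CCAAT), the CHR element (TTTGAA) or an E2F word (TTTCCCGC, TTTGGCGC or TTTCGCGC). For Dctd, which has 3 annotated starts, the first listed is given.
Dctd promoter, chr8:48109708-48110007, plus strand: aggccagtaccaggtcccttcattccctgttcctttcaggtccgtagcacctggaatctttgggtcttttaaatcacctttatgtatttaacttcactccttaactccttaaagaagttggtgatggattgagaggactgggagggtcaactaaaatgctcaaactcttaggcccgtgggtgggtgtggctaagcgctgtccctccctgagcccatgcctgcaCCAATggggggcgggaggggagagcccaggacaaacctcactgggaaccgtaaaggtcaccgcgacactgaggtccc
Uck2 promoter, chr1:167285078-167285377, minus strand: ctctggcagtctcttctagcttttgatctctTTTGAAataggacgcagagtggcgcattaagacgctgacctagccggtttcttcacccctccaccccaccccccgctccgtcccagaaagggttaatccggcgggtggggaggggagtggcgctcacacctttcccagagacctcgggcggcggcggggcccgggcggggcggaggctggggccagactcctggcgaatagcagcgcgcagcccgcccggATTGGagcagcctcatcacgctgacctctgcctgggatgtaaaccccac
Dctd has 1 CCAAT match in this window, and Uck2 has 1 CCAAT match on the reverse strand and 1 CHR match. Among all 32817 promoters of the same length, 37.4% hold CCAAT, 17.9% the CHR letters and 1.84% an E2F word.

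The remaining 6 members tested were not called for Apc loss, with log2 fold changes from 0.04 (Umps) through 0.11 (Dut) and 0.53 (Tyms) to 0.71 (Rrm1). Tumoroid line F11 stood apart from M3 and M14 among them. Rrm2, the small subunit of ribonucleotide reductase that is made in S phase, was at 2243 CP20M in F11 against 210 in M3 and 221 in M14, and at 295, 882 and 348 in the 3 colonoid lines. Rrm1, the large subunit, was at 4394 CP20M in F11 against 819 and 786, and at 413, 1995 and 760 in colonoids. Tk1, the cytosolic thymidine kinase, was at 1812 CP20M in F11 against 189 and 194, and at 222, 867 and 241 in colonoids. F11 was thus the highest and, among colonoids, M40 the highest for all 3 genes. Summed over 18 DNA replication genes the level was 42090 CP20M in F11 against 9390 and 8215 in M3 and M14, and 17077 in M40 against 6748 and 10172 in M41 and M1. The part of this difference in the members' values was not tested. Without F11 the log2 fold change of Rrm2 for Apc loss moved from 0.09 to -1.0 and that of Tk1 from 0.18 to -0.86, with adjusted p-values of 0.354 and 0.394.

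Regorafenib, a multi-kinase inhibitor, was compared with vehicle over both doses and both genotypes. It gave 1 call among the 8 members, Tyms, which was lower with the drug. This share is below the 16.9% of all genes that were called. The median of the 8 was -0.20 on the log2 scale, against -0.11 over all genes.

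Tyms encodes thymidylate synthase, the enzyme that FdUMP inhibits. In colonoids M41, M40 and M1 it was at 519, 724 and 468 CP20M with vehicle, at 157, 334 and 314 with 4 µM and at 162, 207 and 334 with 8 µM regorafenib. Tumoroids F11, M3 and M14 held 1351, 625 and 651 CP20M with vehicle, 508, 294 and 392 with 4 µM and 453, 348 and 361 with 8 µM. Within each genotype every regorafenib library was below every vehicle library. Over 6 lines the log2 fold change was -1.10 ± 0.29 (SE), a ratio of 0.465, with a limma adjusted p of 0.00723. It was lower in 6 of 6 lines, by -0.51 (M1) to -1.59 (M41) on the log2 scale. Over 15 alternatives the estimate stayed between -1.27 and -0.94 and the adjusted p between 0.00136 and 0.0413, and at the stricter limits of the study the call was lost. Leaving out the M41 library of fewest reads gave -1.02 with an adjusted p of 0.00783.

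The start of Tyms, which carries this change, reads as follows (same window, source and build).
Tyms promoter, chr5:30073576-30073875, minus strand: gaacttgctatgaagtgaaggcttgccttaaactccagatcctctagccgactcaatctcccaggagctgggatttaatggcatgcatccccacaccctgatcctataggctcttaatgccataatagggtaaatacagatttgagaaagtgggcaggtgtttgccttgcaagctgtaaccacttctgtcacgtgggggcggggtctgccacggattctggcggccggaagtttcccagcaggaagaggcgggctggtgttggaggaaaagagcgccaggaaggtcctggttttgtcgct
No capitals appear because none of these letters was found in the window. GENCODE M21 lists a processed copy of the gene, Tyms-ps, which was not analysed here, so reads shared with it leave the Tyms level uncertain.

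**Figure D2:**
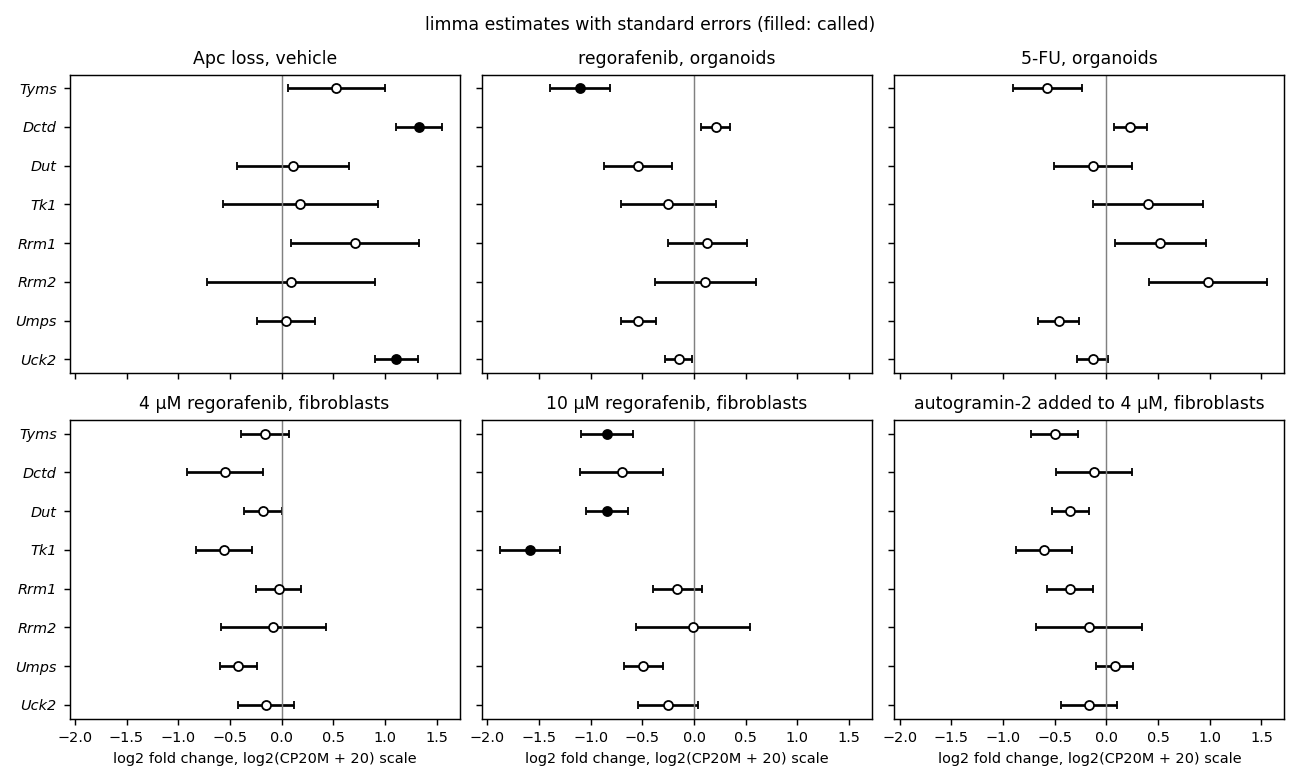
Log2 fold change (x axis, log2(CP20M + 20) scale) of the 8 members tested in 6 comparisons; points are limma estimates, bars standard errors, and filled points are called. Filled points are Dctd and Uck2 for Apc loss, Tyms for regorafenib in organoids, and Tyms, Dut and Tk1 for 10 µM regorafenib in fibroblasts.

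Umps, the bifunctional enzyme that forms UMP and can convert 5-FU directly to its nucleotide, was the next member by adjusted p. Colonoids held 862, 634 and 744 CP20M with vehicle, 352, 558 and 406 with 4 µM and 472, 539 and 545 with 8 µM. In tumoroids it was at 1083, 603 and 675 with vehicle, 560, 441 and 422 with 4 µM and 628, 685 and 607 with 8 µM. The vehicle and drug values were separate in colonoids at both doses and in tumoroids at 4 µM, while at 8 µM the tumoroid values overlapped vehicle. The log2 fold change was -0.54 ± 0.17 (SE, lower in 6 of 6 lines), with a limma adjusted p of 0.0215, but the ratio of 0.686 was short of 1.5-fold and the gene was not called. It was called without colonoid line M40 (-0.65, adjusted p = 0.0279) and without tumoroid line M3 (-0.63, adjusted p = 0.0324), out of adjusted p-values of 0.00764 to 0.0888 over all alternatives.

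Dut encodes the dUTPase that keeps uracil out of DNA and yields dUMP. Its line means were lower with regorafenib in 6 of 6 lines, at -0.54 ± 0.33 (SE) on the log2 scale and a limma adjusted p of 0.231. Only the M41 library of fewest reads, at 703 CP20M from 18 reads, was above its own vehicle value of 447 among the colonoids, and in tumoroids M3 at 8 µM was, with 445 against 371. Pooled over the genotypes, Dctd (0.21) and Uck2 (-0.15) were near 0 on the log2 scale. Dctd was higher in 3 of 3 colonoid lines, by 0.24, 0.84 and 0.23 in M41, M40 and M1. In tumoroids F11, M3 and M14 it changed by 0.14, -0.10 and -0.11. For Tk1 (-0.25), Rrm1 (0.13) and Rrm2 (0.11) the lines differed in direction. In tumoroid lines M3 and M14 Rrm2 was higher with regorafenib by 1.40 and 1.51 on the log2 scale, and in F11 it was lower by -0.63. Tk1 was likewise higher by 1.06 and 0.98 in M3 and M14 and lower by -1.42 in F11. With 4 µM the Rrm2 values were 1452, 347 and 572 CP20M in F11, M3 and M14, and with 8 µM they were 1423, 987 and 777. The drug values thus lay between the F11 and the M3 and M14 vehicle levels. Over the same libraries the summed mitosis list ran from 39526 CP20M (vehicle) to 10713 and 7893 in F11, from 1575 to 5097 and 9521 in M3 and from 2339 to 6267 and 6589 in M14. Its part in these values was not tested. Without F11 the log2 fold change of Rrm2 in tumoroids was 1.46 with an adjusted p of 0.0934, against 0.76 with it.

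**Figure D3:**
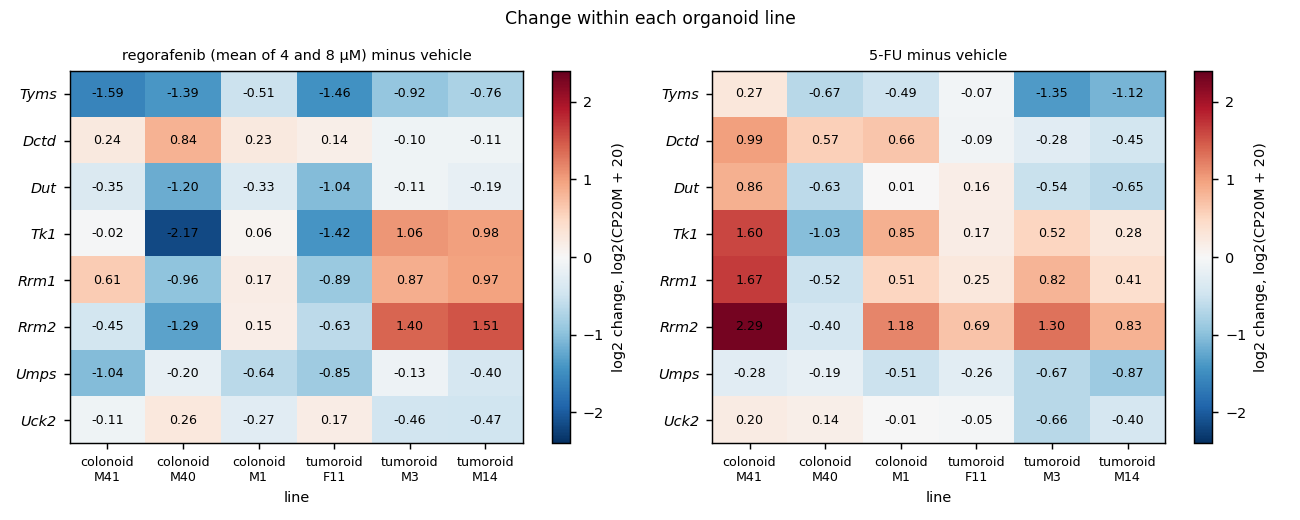
Change of each tested member within each organoid line (log2(CP20M + 20), colour and number), for regorafenib as the mean of both doses minus vehicle (left) and for 5-FU minus vehicle (right). Tyms and Umps are negative in all 6 lines with regorafenib, while Tk1, Rrm1 and Rrm2 are positive in tumoroids M3 and M14 and negative in F11 and in colonoid M40.

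Within colonoids alone limma called 0 of the 8 members for regorafenib, where 14.6% of all genes were called, and 3 members had an unadjusted p under 0.05. Tyms was at -1.16 ± 0.41 (SE) with an adjusted p of 0.0552, and with the line as a block 2 members were called, Tyms (adjusted p = 0.0146) and Umps (-0.63, adjusted p = 0.0325). The other members in colonoids ran from -0.71 (Tk1) to 0.44 (Dctd). For Dctd the limma adjusted p was 0.122, and it was 0.521 without line M40. It was 0.0385 without the colonoid library of fewest reads and 0.0349 by edgeR, in both cases short of 1.5-fold. Within tumoroids alone 0 of 8 were called against 7.78% of all genes, with 1 member under an unadjusted p of 0.05 and a range from Tyms to Rrm2 at 0.76. The 900 genes behind that share were 1422 with the line as a block, 1441 without the colonoid library of fewest reads, and 380, 383 and 220 without F11, M3 and M14. Here Tyms was at -1.05 ± 0.41 (SE), adjusted p = 0.117, and it was called with the line as a block (adjusted p = 0.0348). edgeR on the recovered reads called 0 members in either genotype.

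Tested as a difference of the responses to regorafenib, the genotypes gave 0 calls among the members and 0% of all genes by limma, and 0 members by edgeR. No member had an unadjusted p under 0.05. For Tyms the ratio of the responses was 1.08 with a 95% interval of 0.469 to 2.5, and for Rrm2 it was 2.45 with an interval of 0.585 to 10.2. The log2 differences of the 8 lay between -0.46 (Dctd) and 1.29 (Rrm2). Intervals of this width do not show that the genotypes respond alike.

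Between 8 and 4 µM regorafenib 0 members were called by limma and 0 by edgeR, against 0.848% of all genes by limma. With the line as a block 387 genes were called in place of 98, and still 0 members. Members with an unadjusted p under 0.05 were Dctd and Uck2. Dctd was higher at 8 µM in 6 of 6 lines, with colonoid values of 196, 311 and 266 CP20M at 4 µM and 369, 389 and 348 at 8 µM, which did not overlap, the lowest of them resting on 5 reads. In tumoroids it was at 579, 553 and 410 CP20M at 4 µM and 679, 746 and 537 at 8 µM, which overlapped. The log2 difference was 0.42 ± 0.16 (SE), with an adjusted p of 0.18. Uck2 was also higher in 6 of 6 lines, by 0.42 ± 0.15 (SE), with an adjusted p of 0.152. For Tyms the ratio between the doses was 0.937, with a 95% interval of 0.578 to 1.52. The remaining members ran from -0.26 (Dut) to 0.39 (Rrm1) on the log2 scale.

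The comparison of 5-FU with vehicle over both genotypes used the same vehicle libraries as the regorafenib comparison. limma called 0 of the 8 members, where 2.35% of all genes were called, and edgeR called 0. The 272 genes behind this share were 584 with the line as a block, 493 without the colonoid library of fewest reads, 26 without colonoid line M1, and 28 and 55 without tumoroid lines M3 and M14. One member, Umps, had an unadjusted p under 0.05. In colonoids Tyms was at 629, 446 and 328 CP20M with 5-FU, which overlapped the vehicle range of 468 to 724. Tumoroids F11, M3 and M14 held 1286, 233 and 289 CP20M of Tyms, so M3 and M14 were below every vehicle value while F11 was near its own value of 1351. With the genotypes pooled Tyms was at -0.57 ± 0.33 (SE, lower in 5 of 6 lines) on the log2 scale, with an adjusted p of 0.442. Without F11 it was -0.77, with an adjusted p of 0.118.

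Umps with 5-FU was at 704, 555 and 518 CP20M in colonoids and 898, 372 and 359 in tumoroids. It was below the line's own vehicle value in 6 of 6 lines. On the log2 scale this was -0.46 ± 0.20 (SE), with an adjusted p of 0.242. Rrm2 with 5-FU was at 1520, 662 and 816 CP20M in colonoids and 3641, 548 and 409 in tumoroids. Its level was above vehicle in 5 of 6 lines, M40 being the exception, at 0.98 ± 0.57 (SE) on the log2 scale and an adjusted p of 0.44. Rrm1 and Tk1 were above vehicle in the same 5 lines, at 0.52 ± 0.44 and 0.40 ± 0.53. Dut and Uck2 were both at -0.13 and Dctd at 0.23. So Tyms was lower and both reductase subunits were higher in colonoid M1 and in tumoroids F11, M3 and M14, with none of these values past the test. In F11 the change of Tyms was only -0.07 on the log2 scale.

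Within colonoids 5-FU gave 0 calls among the members and 0.0432% of all genes, and within tumoroids 0 and 0.182%, with 0 members by edgeR in each. These shares are 5 and 21 genes, and they were 77 and 287 with the line as a block, 32 and 230 without the colonoid library of fewest reads, 0 without any 1 of the colonoid lines or tumoroid lines M3 or M14, and 9 in tumoroids without F11. Dctd was the member with an unadjusted p under 0.05 in colonoids and Umps in tumoroids. Dctd with 5-FU was at 468, 286 and 417 CP20M in colonoids, above all 3 vehicle values, with a log2 fold change of 0.74 ± 0.22 (SE) and an adjusted p of 0.352. In tumoroids it was at 529, 567 and 369, each below the line's own vehicle value, at -0.27 ± 0.22. The other members ran from -0.33 (Umps) to 1.02 (Rrm2) in colonoids and from -0.85 (Tyms) to 0.94 (Rrm2) in tumoroids. Tested as a difference of the responses to 5-FU, the genotypes gave 0 called members by limma and by edgeR, and 0% of all genes were called. For Dctd this difference was -1.01 ± 0.31 (SE), with an unadjusted limma p of 0.00439 and an adjusted p of 1, and the other members lay between -0.55 (Tyms) and -0.06 (Rrm1).

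Set directly against each other, 8 µM regorafenib and 1 µM 5-FU differed for 0 of the 8 members by limma and by edgeR, while 8.78% of all genes were called, and no member had an unadjusted p under 0.05. For Tyms the ratio of regorafenib to 5-FU was 0.67 with a 95% interval of 0.413 to 1.09, and for Tk1 it was 0.605 with an interval of 0.281 to 1.3. For Umps it was 1.06, with an interval of 0.801 to 1.42, and the rest ran from -0.71 (Rrm2) to 0.19 (Uck2) on the log2 scale.

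Dpyd, which encodes the dihydropyrimidine dehydrogenase that breaks 5-FU down, was at 0 to 14 CP20M in 23 organoid libraries and at 40, from 1 read, in the M41 library of fewest reads. It was listed at 0 in 3 organoid libraries and rested on at most 9 reads in any of them. Fibroblasts held 57 to 145 CP20M of Dpyd, from 27 to 84 reads, in all 19 libraries. Upp1, a uridine phosphorylase that also acts on 5-FU, was at 38 to 153 CP20M in organoids and 21 to 143 in fibroblasts. Under a wider filter of at least 20 CP20M in 3 libraries it was not called in any organoid comparison, with log2 values from -0.43 (Apc loss, adjusted p = 0.541) to 0.55 (difference of the regorafenib responses, adjusted p = 1). Dpyd was too low in organoids to be tested.

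**Figure D4:**
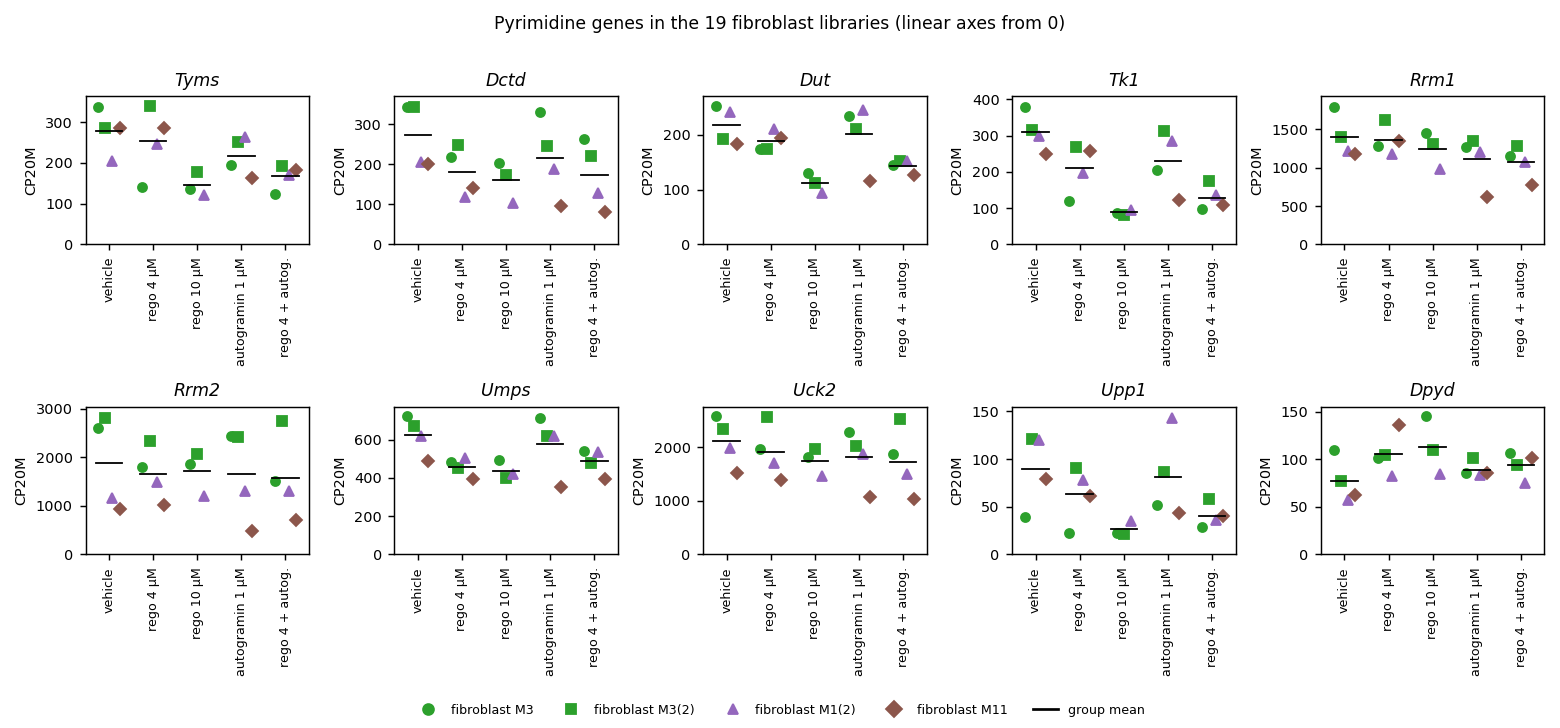
Level of each gene (CP20M, linear axis from 0) in every fibroblast library, by treatment; symbols are lines and black bars group means. At 10 µM regorafenib Tk1 is at 82 to 96 CP20M, below all 4 vehicle values of 249 to 378, and Dpyd is at 85 to 145.

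In fibroblasts 10 µM regorafenib gave 3 called members of the 8 tested, Tk1, Dut and Tyms, all lower, where 7.33% of all genes were called. The median of the 8 was -0.59 on the log2 scale, against -0.04 over all genes. With the line as a block 5 members were called, Umps (-0.60, adjusted p = 1.43e-04) and Dctd (-0.90, adjusted p = 3.78e-04) being added, and 1519 genes were called in place of 809. Without line M3, M3(2) or M1(2) 372, 386 and 358 genes were called.

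Tk1 was at 378, 315, 298 and 249 CP20M with vehicle in lines M3, M3(2), M1(2) and M11 and at 87, 82 and 96 with 10 µM in the first 3 of them. The groups were far apart. The log2 fold change was -1.59 ± 0.29 (SE), a ratio of 0.331, with a limma adjusted p of 0.00189. It was called under every one of 12 alternatives, with a log2 value of -1.78 to -1.11 and an adjusted p of 5.14e-05 to 0.043.

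Dut was at 252, 192, 241 and 184 CP20M with vehicle and 130, 112 and 94 with 10 µM, without overlap. Its log2 fold change was -0.84 ± 0.20 (SE), with a limma adjusted p of 0.00949. Tyms was at 338, 286, 204 and 285 CP20M with vehicle and 137, 178 and 122 with the drug, also without overlap, at -0.84 ± 0.25 (SE) and an adjusted p of 0.0318. Both were lower in 3 of 3 lines that received the dose. Both calls were lost when line M3, M3(2) or M1(2) was left out, with adjusted p-values of 0.106 to 0.149 for Tyms and 0.0873 to 0.149 for Dut, and both were kept without M11, which has no library at this dose. Tyms also lost its call without the filter on low values (adjusted p = 0.0626), and Dut fell short of 1.5-fold with a pseudocount of 100 (-0.58).

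Rrm1, Rrm2 and Uck2 (-0.25) were not called at 10 µM. Rrm2 was at 2609, 2810, 1165 and 937 CP20M with vehicle and 1863, 2076 and 1210 with the drug, in ranges that overlapped, with a log2 fold change of -0.01 ± 0.55 (SE). That estimate includes the vehicle library of M11, the lowest at 937, which has no counterpart at this dose. Within lines M3, M3(2) and M1(2) Rrm2 changed by -0.48, -0.43 and 0.05. With the line as a block it was at -0.33 (limma adjusted p = 0.186). Rrm1 was at 1798, 1395, 1213 and 1181 against 1454, 1305 and 988 CP20M, at -0.16 ± 0.24 (SE). Under the block Rrm1 was at -0.27 (limma adjusted p = 0.174) and Uck2 at -0.43 (adjusted p = 0.00449), both short of 1.5-fold. Each of these 2 genes was lower in 3 of 3 lines. In the same libraries all 10 genes of the mitosis list were called lower, led by Mki67, a marker of cycling cells (-2.34 ± 0.46 SE, adjusted p = 0.00327), and 12 of 15 tested genes of the DNA replication list, led by Uhrf1 (-1.91 ± 0.28 SE, adjusted p = 4.21e-04), against 7.33% of all genes. The summed mitosis list was at 5154 to 7699 CP20M with vehicle and at 1292, 1626 and 1516 with 10 µM. How far these levels and those of Tk1, Dut and Tyms rest on the same cells was not tested.

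Dpyd and Upp1 were tested in fibroblasts under the wider filter of at least 20 CP20M in 3 libraries. Upp1 was at 39, 121, 120 and 79 CP20M with vehicle and 23, 21 and 35 with 10 µM, without overlap, at -1.17 and a limma adjusted p of 0.0507. Dpyd was at 110, 77, 57 and 63 CP20M with vehicle and 145, 110 and 85 with the drug, higher in 3 of 3 lines, at 0.47 ± 0.19 (SE) and an adjusted p of 0.139. Neither passed the test.

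At 4 µM regorafenib 0 of 8 members were called in fibroblasts by limma or edgeR, where 1.02% of all genes were called by limma, and 1 member, Umps, had an unadjusted p under 0.05. Umps was at 725, 669, 618 and 488 CP20M with vehicle and 485, 452, 503 and 397 with 4 µM, lower in 4 of 4 lines. The log2 fold change was -0.42 ± 0.18 (SE) with an adjusted p of 0.293, and with the line as a block the same estimate had an adjusted p of 0.0032 but was short of 1.5-fold. Tk1 at this dose was at 119, 268, 198 and 259 CP20M, with line M3 far below its vehicle value of 378 and M11 at 259 against 249. The log2 fold change of Tk1 was -0.56, with a limma adjusted p of 0.377. Dctd was lower in 4 of 4 lines, at -0.55 and an adjusted p of 0.566. With the line as a block its adjusted p was 0.0142, but it was short of 1.5-fold. The other members ran from -0.18 (Dut) to -0.03 (Rrm1), and under the wider filter Upp1 was at -0.41 and Dpyd at 0.39 with adjusted p-values of 0.694 and 0.378. The 113 genes behind the share were 797 with the line as a block, 28, 75 and 30 without M3, M3(2) and M1(2), and 317 without M11.

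Autogramin-2 alone gave 0 called members by limma and by edgeR and 0% of all genes, and 0 members had an unadjusted p under 0.05. The members lay between -0.46 (Tk1) and -0.13 (Dut), with Upp1 at -0.14 and Dpyd at 0.20 under the wider filter. The M11 library with autogramin-2 held 481 CP20M of Rrm2, 624 of Rrm1 and 121 of Tk1, the lowest of its group for each gene. Its summed DNA replication list was at 6253 CP20M against 8837 to 9318 in the other 3 lines. Added to 4 µM regorafenib, autogramin-2 gave 0 called members by limma and by edgeR, where 0.00906% of all genes (1 gene) were called by limma. Tk1 was at 97, 174, 136 and 109 CP20M with both agents, lower than with regorafenib alone in 4 of 4 lines, at -0.60 ± 0.27 (SE) on the log2 scale, an unadjusted limma p of 0.0383 and an adjusted p of 0.87. Tyms was at 123, 193, 171 and 183 CP20M, also lower in 4 of 4 lines, at -0.50 ± 0.23 (SE) and an adjusted p of 0.87. Tk1, Tyms, Dut, Uck2 and Rrm1 were each lower in 4 of 4 lines, none of them past the test. Umps was at 0.08, and under the wider filter Upp1 was at -0.38 and Dpyd at -0.13. With the line as a block 158 genes were called, among them 0 members.

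Partners of these enzymes were followed in lists of the same pathways, given as counts beside the median of all genes. For Apc loss 2 of 11 tested folate genes were called, beside 2.06% of all genes, both higher, namely Shmt2, the mitochondrial serine hydroxymethyltransferase (1.27 ± 0.24 SE, adjusted p = 0.00906), and Slc19a1, the reduced folate carrier (1.17 ± 0.26 SE, adjusted p = 0.0243). With regorafenib 3 of 11 were called (4 with the line as a block), beside 16.9% of all genes, all lower, with Mthfd2, the mitochondrial methylenetetrahydrofolate dehydrogenase, at -1.0 ± 0.24 (SE, adjusted p = 0.00472), Slc19a1 at -0.86 ± 0.16 (adjusted p = 4.99e-04) and Shmt2 at -0.66 ± 0.15 (adjusted p = 0.00214). The same 3 genes were called within tumoroids, at -1.31, -1.12 and -0.95, and not within colonoids, while the test of the difference of the responses called no gene (at most 7 under any alternative). Over all genes 7.78% were called within tumoroids and 14.6% within colonoids. With 5-FU 4 of 11 were called, beside 2.35% of all genes, all lower, led by Mthfd2 at -1.98 ± 0.28 (SE, adjusted p = 0.00103). Mthfd2 was at 1937 ± 1061 CP20M (SD, n = 3) in vehicle-treated colonoids and 502 ± 133 with 5-FU, and at 3150 ± 1114 and 658 ± 199 in tumoroids. The median of the folate list was 0.64, -0.39 and -0.25 in these 3 comparisons, against 0.06, -0.11 and -0.01 over all genes. Between the drugs limma called Mthfd2 higher with 8 µM regorafenib than with 5-FU (1.38 ± 0.28 SE, adjusted p = 0.00327), beside 8.78% of all genes.

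Among the 7 genes of de novo synthesis Cad, the enzyme of its first steps, was higher in tumoroids (1.18 ± 0.27 SE, adjusted p = 0.0265), Cmpk1, which phosphorylates UMP and CMP, was lower (-1.08 ± 0.22 SE, adjusted p = 0.0158), and 5 were not called (2 higher and 1 lower with the line as a block). Over all genes 2.06% were called for Apc loss. With regorafenib in organoids 1 of 7 was called, the nucleoside diphosphate kinase Nme1 (0.62 ± 0.18 SE, adjusted p = 0.0156), a share near the 16.9% of all genes. Within colonoids 1 of 7 was called, Cmpk1, which was lower (-0.69 ± 0.19 SE, adjusted p = 0.019), near the 14.6% of all genes. With the line as a block 1 was called higher and 1 lower there. Of 8 tested salvage genes 1 was called with regorafenib, the cytidine deaminase Cda, which was higher (0.69 ± 0.19 SE, adjusted p = 0.0104), and this share is below the 16.9% of all genes. Of 7 tested nucleoside transporters and pumps the equilibrative transporter Slc29a1 fell (-0.89 ± 0.22 SE, adjusted p = 0.00437) and its lysosomal relative Slc29a3 rose (0.79 ± 0.23 SE, adjusted p = 0.0155), with 2 higher and 1 lower under the block. In fibroblasts Abcc4 of this list was called lower at 4 µM (-0.81 ± 0.17 SE, adjusted p = 0.0184) and 10 µM (-0.97 ± 0.18 SE, adjusted p = 0.0021). Over all genes 1.02% and 7.33% were called at these doses. Of 4 partners of ribonucleotide reductase the thioredoxin Txn1 was called over both genotypes (-0.67 ± 0.16 SE, adjusted p = 0.00335) and within colonoids (-1.12 ± 0.22 SE, adjusted p = 0.00198) but not within tumoroids. The limma test of the difference of the responses called no gene. In vehicle Txn1 was already lower in tumoroids than in colonoids (-1.16 ± 0.26 SE, adjusted p = 0.0243), beside 2.06% of all genes. It was also called lower in fibroblasts at 10 µM (-0.60 ± 0.18 SE, adjusted p = 0.0351). Of 7 tested genes of breakdown and dNTP clearance 2 were called lower, the pyrimidine nucleotidases Nt5c3b (-0.91 ± 0.26 SE, adjusted p = 0.0119) and Nt5c3 (-0.60 ± 0.19 SE, adjusted p = 0.0206). The calls of transporters, reductase partners and breakdown genes over both genotypes stand beside 16.9% of all genes. That of Txn1 within colonoids stands beside 14.6%. The 10 genes that handle uracil in DNA had a median of -0.19 with regorafenib and -0.03 with 5-FU in organoids. In fibroblasts at 10 µM 3 of the 8 tested were called lower, namely Pole (-1.74 ± 0.32 SE, adjusted p = 0.00208), Lig1 (-0.93 ± 0.24 SE, adjusted p = 0.0171) and Fen1 (-0.89 ± 0.23 SE, adjusted p = 0.017), genes that are also used in DNA replication. The share of all genes called there was 7.33%.

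The members were then compared with each other after the mean of each line was subtracted, as a description over libraries that share lines and treatments. Over the 24 organoid libraries Rrm1 and Rrm2 correlated at r = 0.88, and Tk1 with them at 0.82 and 0.86. Tyms correlated with Umps at 0.79 and with Dut at 0.72, but with Rrm1 at only 0.29 and with Rrm2 at 0.40. Dctd and Uck2 correlated at 0.69, and Uck2 with Tk1 at -0.35. Over the 19 fibroblast libraries Tk1 correlated with Dut at 0.93, Tyms at 0.90 and Dctd at 0.85, and the lowest pair was Umps with Rrm1 at 0.37.

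**Figure D5:**
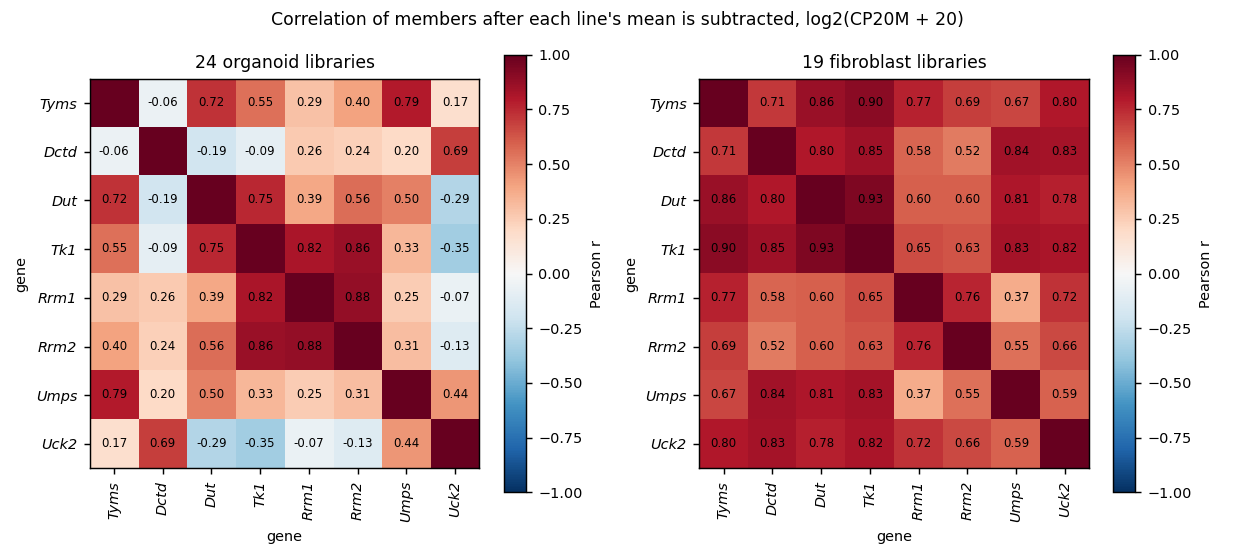
Pearson correlation between the 8 members after subtraction of each line's mean, on log2(CP20M + 20), over organoid libraries (left) and fibroblast libraries (right). In organoids Tk1, Rrm1 and Rrm2 form a block of 0.82 to 0.88 and Tyms is closest to Umps at 0.79, and in fibroblasts all pairs are positive.

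By the same measure the genes outside the list most like Tk1 in organoids were Foxm1 (r = 0.98), Ccna2 (0.97) and Cdca3 (0.97). For Rrm2 they were Spc25, Bub1 and Ccnb2 (0.93 each), and for Rrm1 they were Kif20a (0.95), Kifc5b (0.94) and Mcm4 (0.94). Tyms was closest to Pmf1 (0.94), Lrwd1 (0.91) and Fancl (0.91), Umps to Slc25a35 (0.92), Rangrf (0.92) and Mrps7 (0.90), and Dut to Hist2h2ac (0.92), Cdt1 (0.90) and Gm44492 (0.90). Dctd was closest to Pctp (0.88), Nek6 (0.88) and Zmat3 (0.87), and Uck2 to Mtrr (0.90), Klhdc1 (0.89) and Cth (0.88). In fibroblasts the first of each list was Hmgb1 for Tyms (0.96), Hist1h4b for Tk1 (0.97), Ptbp1 for Dctd (0.96), Eif4h for Dut (0.96), Hspa1b for Umps (0.95), Mbnl3 for Uck2 (0.95), Kifc1 for Rrm1 (0.93) and Tubb4b for Rrm2 (0.83).

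The starts of the reductase subunits and of Umps are given because the first pair moved together and Umps was closest to Tyms in organoids (same window, source, build and capitals).
Rrm1 promoter, chr7:102441445-102441744, plus strand: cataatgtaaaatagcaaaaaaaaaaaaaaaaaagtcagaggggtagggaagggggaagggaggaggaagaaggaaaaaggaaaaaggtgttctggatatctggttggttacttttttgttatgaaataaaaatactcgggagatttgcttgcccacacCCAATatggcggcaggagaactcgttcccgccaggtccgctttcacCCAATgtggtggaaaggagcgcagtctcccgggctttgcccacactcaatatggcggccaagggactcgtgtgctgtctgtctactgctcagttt
Rrm2 promoter, chr12:24708004-24708303, plus strand: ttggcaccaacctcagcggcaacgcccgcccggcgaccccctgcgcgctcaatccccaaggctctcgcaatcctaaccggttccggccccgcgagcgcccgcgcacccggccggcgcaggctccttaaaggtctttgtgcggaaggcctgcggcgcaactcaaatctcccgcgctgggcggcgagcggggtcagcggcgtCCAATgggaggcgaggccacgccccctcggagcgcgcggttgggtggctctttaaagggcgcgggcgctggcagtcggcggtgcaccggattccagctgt
Umps promoter, chr16:33966989-33967288, minus strand: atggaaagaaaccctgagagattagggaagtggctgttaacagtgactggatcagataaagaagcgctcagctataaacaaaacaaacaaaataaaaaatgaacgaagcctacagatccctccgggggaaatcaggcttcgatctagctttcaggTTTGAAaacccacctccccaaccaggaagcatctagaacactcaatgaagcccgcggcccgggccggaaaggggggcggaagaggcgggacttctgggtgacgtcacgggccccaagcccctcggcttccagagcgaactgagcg
Rrm1 holds 2 CCAAT matches and Rrm2 holds 1, and Umps holds 1 CHR match. Of the 10 members 4 have a CCAAT match (Dctd, Uck2, Rrm1 and Rrm2), 2 a CHR match (Umps and Uck2) and 0 an E2F word in these windows.

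On GRCm38 Tyms lies at chr5:30058202-30073617, Dctd at chr8:48099092-48153233, Uck2 at chr1:167222883-167285320, Umps at chr16:33954782-33967038, Rrm1 at chr7:102441695-102469771 and Rrm2 at chr12:24708241-24714146. Tk1 lies at chr11:117815526-117826092, Dut at chr2:125247190-125258608, Dpyd at chr3:118562129-119432924 and Upp1 at chr11:9118103-9136170. Exons of Tk1 overlap Afmid, those of Umps overlap Gm15829 and those of Uck2 overlap Gm2453, each on the opposite strand, and reads of such pairs cannot be told apart unless they were counted by strand, which is not given in the sources used here.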

How the data were processed

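RNA sequencing of 24 organoid and 19 fibroblast libraries was analysed. The authors trimmed reads with Trimmomatic 0.36, aligned them to GRCm38 with STAR 2.5.3a, counted them per Ensembl gene with HTSeq 0.9.1 and scaled each library to the same total (versions per the submitters' processing notes). The deposited signal values (CP20M) are whole numbers, and libraries sum to slightly more than that total, as rounding up would give. The library kit differs between the labels and the methods, and strand counting is not given in the sources used here.

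Samples were grouped by their labels. The titles of the 3 tumoroid 5-FU libraries say colonoid, and these were placed by genotype label. Each organoid line is from 1 mouse and recurs in every treatment of its genotype, and after subtraction of group means the mean correlation across genes of libraries of 1 line was 0.50 for organoids (0.01 to 0.89, 36 pairs) and 0.72 for fibroblasts (0.34 to 0.95, 36 pairs), against -0.25 and -0.23 between lines. The subtraction by itself pulls the values between lines below 0, so they are no independent comparison. No 2 libraries of a group agreed within sampling noise, with a chi-square per gene of 8.86 or more.

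Values were tested as log2(CP20M + 20) with limma 3.58.1 (lmFit, contrasts.fit, eBayes with trend) in R 4.3.3, with 1 coefficient per group and all libraries of a table in the fit, over 11562 genes in organoids and 11032 in fibroblasts. Fold changes are on that scale, which understates changes of low genes. Whole reads were recovered from the step of each library, and 99.60% to 100.00% of values above 0 per library were whole reads times that step, rounded up. In the 3 libraries of most reads, where 1 read is under 1 CP20M, the recovery is approximate. edgeR 4.0.16 (quasi-likelihood) on these reads was an alternative, and it called 2187 genes for regorafenib in organoids against 1949 by limma. Other alternatives were pseudocounts of 2 and 100, no filter or 20 CP20M in 3 libraries, TMM scaling, the line as a block (duplicateCorrelation for Apc loss), only the groups compared, each line left out, the library of fewest reads left out, and stricter limits. Intervals of ratios are 95% limma intervals. The steps were tested on simulated data. Promoters were matched by symbol in the RefSeq table, which held all 10 members, and positions and lengths are from GENCODE M21.

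The members, lists and alternatives were chosen with earlier results of these data known. The rule names all 10 members in every comparison, and where values of a comparison are not given 1 by 1 the members are given by their range, with at most 3 called genes of each pathway list by absolute fold change, and 3 most alike genes per member. Counting error and differences between lines are both in the standard errors.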

Additional observations from a re-analysis of the deposited data

Results flagged for a closer look

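The sign of the Dctd change with 5-FU differed between the 2 genotypes. Dctd was above vehicle in all 3 colonoid lines (by 0.99, 0.57 and 0.66 on the log2 scale in M41, M40 and M1) and below it in all 3 tumoroid lines (by -0.09, -0.28 and -0.45 in F11, M3 and M14). Within tumoroids the change was -0.27, with an unadjusted limma p of 0.235, so a decrease there is not shown. The pattern was picked by its signs among the 10 members with regorafenib and with 5-FU, and how often chance gives it was not tested. The limma test of the difference between the genotypes gave -1.01 ± 0.31 (SE) with an unadjusted p of 0.00439 and an adjusted p of 1, so it did not pass.

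Dpyd in fibroblast line M3(2) with autogramin-2 was at 101 CP20M, apart from the other 3 lines at 84 to 86. This was 1 of 40 groups of 4 looked at for a value far from the rest, and chance flags about 1 in 20.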

How the results depend on the processing

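The number of members called for Apc loss (2) was 0 when only the vehicle groups entered the fit and ran from 0 to 2 with a line left out. For regorafenib in organoids (1) it was 0 at the study's stricter limits and 1 to 2 with a line left out. With the line as a replicate block, regorafenib gave 2 members in colonoids, 1 in tumoroids and, at 10 µM in fibroblasts, 5, and it changed no other member's call. Within tumoroids 1 member (Tyms) was called when only those groups were fitted. At 10 µM in fibroblasts (3) it was 1 to 4 with a line left out. The cause was not tested. No other count of members moved by more than 1.5 times, and no call changed direction. For all genes, TMM scaling moved the calls for regorafenib in colonoids from 656 higher and 1029 lower to 952 and 845, those between doses from 50 and 48 to 52 and 101, and the median for regorafenib in organoids from -0.11 to -0.04. Over all alternatives the genes called ran from 1 to 785 for Apc loss (238), 786 to 2542 for regorafenib in organoids (1949), 286 to 2302 in colonoids (1685), 60 to 1441 in tumoroids (900), 0 to 387 between doses (98), 9 to 584 for 5-FU in organoids (272), 0 to 77 in colonoids (5), 0 to 287 in tumoroids (21), 177 to 1451 for 8 µM regorafenib against 5-FU (1015), 28 to 797 and 358 to 1519 for 4 and 10 µM in fibroblasts (113 and 809) and 0 to 158 for added autogramin-2 (1), so the shares of all genes set beside the members move with the fit. Depth limits the M41 library at 4 µM, where 1 read is 39 CP20M, and Dpyd in all organoids, at 0 to 9 reads. Upp1, also low, rested on 1 to 171 reads in organoids, with the 1 read in that M41 library.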

Other observations

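For Apc loss 2 of 16 tested genes of purine synthesis and salvage were called, beside 2.06% of all genes, both higher in tumoroids, Pfas (1.12 ± 0.25 SE, limma adjusted p = 0.0246) and Gart (1.01 ± 0.22 SE, adjusted p = 0.0199), enzymes of the de novo route, and the list's median was 0.42 against 0.06 over all genes. With regorafenib in organoids 1 of 16 was called, fewer than the 16.9% of all genes, namely Adssl1, an adenylosuccinate synthetase (1.40 ± 0.25 SE, adjusted p = 4.13e-04). With 5-FU 2 were called higher when the line was a block and none otherwise. In fibroblasts at 10 µM 5 of 16 were called lower (6 with the block), beside 7.33% of all genes, led by Impdh2, the rate-limiting enzyme of guanine nucleotide synthesis (-0.76 ± 0.10 SE, adjusted p = 1.24e-04).

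Of 14 tested p53 target genes 1 was called with 5-FU in organoids, Btg2, an antiproliferative gene (0.79 ± 0.19 SE, limma adjusted p = 0.0272), beside 2.35% of all genes. With the line as a block 2 were called higher and 1 lower, and the median of the list was 0.48 against -0.01 over all genes. Btg2 was also the 1 called with regorafenib within tumoroids (0.88 ± 0.23 SE, adjusted p = 0.02), near the 7.78% of all genes. With the line as a block 1 was called higher and 1 lower there. Bbc3 was called lower with 8 µM regorafenib than with 5-FU (-0.96 ± 0.21 SE, adjusted p = 0.00596), beside 8.78% of all genes. In fibroblasts the death receptor gene Fas was the 1 called of 15, at 0.93 ± 0.16 (SE, adjusted p = 0.0055) with 4 µM and 1.24 ± 0.17 (SE, adjusted p = 2.22e-04) with 10 µM regorafenib. Over all genes 1.02% were called at 4 µM and 7.33% at 10 µM, so at 10 µM the count was near the share of all genes. With the line as a block 1 gene of the list was called higher and 1 lower at each dose.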
